A study of Danio rerio with 6 samples.

Results

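The insulin-like growth factor axis was examined in heads of zebrafish larvae through 10 genes, which were found by their gene names in the authors' count table. They are the ligand genes *igf1*, *igf2a* and *igf2b*, the receptor genes *igf1ra* and *igf1rb*, the binding protein genes *igfbp2a*, *igfbp3* and *igfbp5b*, and the growth hormone receptor genes *ghra* and *ghrb*. All 10 were found, among 32520 genes listed. The comparison asked which genes change in their expression when *fbln1* is mutated. This gene codes for Fibulin1, a protein of the extracellular matrix. RNA-Seq was performed on 3 pools of fbln1-/- heads and 3 pools of WT heads at 10 dpf, with 21 heads per pool. The mutants were homozygous for the allele ulg075, a single line with a short deletion in the coding region that was made with CRISPR/Cas9. They came from crosses of heterozygous parents. The WT pools are labelled as AB, and the design text of the series describes them as siblings of the mutants. The pools of a genotype are described as independent batches, and p-values measure the spread between them. The labels name heads, while parts of the methods name whole larvae. Both groups share the AB background, and the labels name for all samples the transgenic line ulg071 Tg, in which GFP is inserted into the endogenous *sp7* gene.

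In vertebrates, growth hormone from the pituitary acts through its receptor and the Jak2 and Stat5 proteins, and one of its known effects is transcription of *igf1* in the liver and other tissues. Insulin-like growth factors bind the Igf1 receptor, a tyrosine kinase related to the insulin receptor, which signals through the insulin receptor substrates (Irs), PI3 kinase and Akt to promote growth, also of cartilage and bone. Most of the secreted factor is held by binding proteins (Igfbp), which can keep it from the receptor or carry it to a tissue, and from which proteinases release it. In zebrafish many genes of the axis exist as an a and a b copy.

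Each library held 15174207 to 18721515 reads on genes, as recovered from the normalized counts. A normalized count is the number of reads on a gene divided by the size factor of its library. It is not divided by transcript length, so levels are compared here between pools of the same gene. Ratios of 2 genes, given below, are likewise compared between pools only. They are not relative amounts of the 2 transcripts. A gene was tested if 3 or more libraries reached 10 normalized counts, and all 10 genes of the axis were among the 20691 genes that did. The test was limma on log2(normalized count + 1), with p-values adjusted by the Benjamini-Hochberg method over all tested genes. Below, "rose" and "fell" are used of genes with an adjusted p under 0.05, and "called" of those that also changed by more than 0.5 on the log2 scale. The *fbln1* transcript itself stood at 77.4, 136 and 70.4 normalized counts in WT pools 1, 2 and 3, and at 93.2, 53.1 and 39.9 in the libraries labelled mutant 1, 2 and 3. Its groups overlap, since the library labelled mutant 1 is above WT pools 1 and 3, and its log2 fold change of -0.63 did not pass (adjusted p = 0.162 by limma). The paper reports a lower level of this transcript in the mutant and reads it as some RNA degradation. Transcripts with a short deletion can still be counted, and how much decay occurred was not tested, so this level is no check of the labels. Markers of other tissues also differed between the groups. Of 19 tested liver markers, 13 rose, and their summed level was 46537 to 52796 normalized counts in WT and 80125 to 91647 in the mutant. For *fabp10a*, a defining liver marker, the log2 fold change was 0.19 (adjusted p = 0.303 by limma), and between 0.05 and 0.36 with 1 library left out. Of 16 tested intestine markers 15 rose (summed level 7018 to 12450 in WT and 49899 to 93512 in the mutant), and so did 17 of 17 of the exocrine pancreas (131297 to 239549 and 241268 to 405473) and 13 of 14 of skeletal muscle (82800 to 130116 and 154277 to 219723). Of 11 tested cartilage and bone markers 8 rose (1560 to 1893 and 8260.2 to 10476), and *bglap* stood at 0 in every library. Of 13 tested head markers, 1 rose and 2 fell, with summed levels of 126092 to 147472 in WT and 112924 to 140196 in the mutant. Of 19 posterior Hox genes only 2 were high enough to be tested and neither passed, with a summed level of 61.3 to 97.0 in WT and 119 to 154 in the mutant. The part of such tissue differences in the results below was not tested.

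Among the 10 genes the 3 binding protein genes rose and the 2 Igf1 receptor genes fell. None of the 3 ligand genes and neither growth hormone receptor gene passed the test. Binding protein genes outside the 10 moved in both directions, as given below. Of the 10 genes, 3 rose, 2 fell and 5 did not pass. Of all tested genes, 18.9% rose and 15.1% fell. With the limit on the fold change, 1 gene of the axis (*igfbp2a*) was called higher and 1 (*igf1ra*) lower, beside 15.4% and 2.68% of all tested genes. Without the library labelled mutant 1, 2 rose and 2 fell, and so it was without any other single pool except mutant pool 3, where 3 rose and 3 fell. How many of all tested genes rose or fell in these fits was not counted. With the limit on the fold change, 1100 of them were called lower without mutant pool 3, beside 555 in the main fit. Without any other single pool 253 to 690 were. The median log2 fold change of the 10 genes was -0.04, and that of all tested genes was -0.03. The pools of both groups did not overlap for 6 of the 10 genes, 3 of them higher and 3 lower in the mutant, beside 24.5% and 24.3% of all tested genes.

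**Figure D1:**
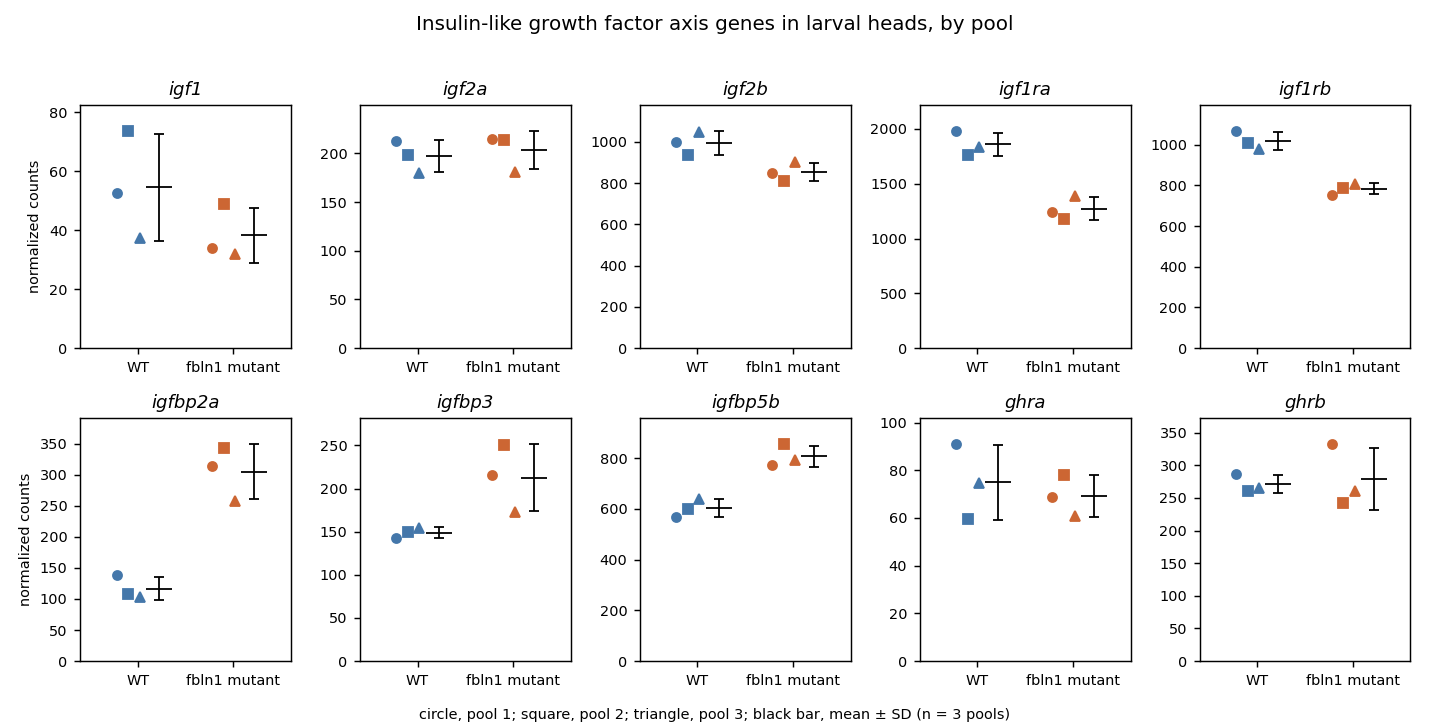
Normalized counts (vertical axes, each starting at 0) of the 10 axis genes in the 3 WT and the 3 fbln1 mutant pools. Circles, squares and triangles are pools 1, 2 and 3, and the black bar is the mean ± SD. For *igfbp2a*, *igfbp3* and *igfbp5b* each mutant pool is above each WT pool, and for *igf1ra*, *igf1rb* and *igf2b* each is below.

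Of the 3 binding protein genes among the 10, *igfbp2a* (ENSDARG00000052470) changed most. In fish and mammals Igfbp2 is secreted into the blood, largely by the liver, and limits growth when it is in excess. Normalized counts of *igfbp2a* were 138, 108 and 103.5 in WT pools 1, 2 and 3 and 315, 344 and 257 in mutant pools 1, 2 and 3. Every mutant pool was well above every WT pool. The means were 117 ± 18.9 in WT and 305 ± 44.0 in the mutant (SD, n = 3 pools each), which is 2.61-fold or 1.38 on the log2 scale (standard error, SE, 0.16, 95% confidence interval 1.04 to 1.72, adjusted p = 0.000124 by limma). When single pools were left out it stayed between 1.29 and 1.51. Of all tested genes, 94.0% had a lower log2 fold change.

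The *igfbp3* gene (ENSDARG00000099144) codes for the binding protein that carries most Igf1 in mammalian blood, and in zebrafish it is needed for the pharyngeal skeleton and the inner ear. It had 142, 149.8 and 155 normalized counts across WT pools and 215, 250.0 and 173 across mutant pools. The WT pools lay close together, while the mutant pools were spread, with pool 3 nearest to WT. The means of 149 ± 6.16 and 213 ± 38.4 (SD, n = 3) gave a log2 fold change of 0.496, just under the limit of the call (SE 0.15, 95% confidence interval 0.17 to 0.82, adjusted p = 0.0258 by limma). This result depended on single pools. Without WT pool 1, 2 or 3 the adjusted p was 0.085, 0.0536 and 0.0564, and without mutant pool 1 or 2 it was 0.073 and 0.102, whereas without mutant pool 3 it was 0.00586 with a log2 fold change of 0.64.

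For *igfbp5b* (ENSDARG00000025348), a copy of the gene whose product in mammals is stored in bone matrix, the WT pools had 569, 601 and 638 normalized counts and the mutant pools 774, 854 and 794. The groups were far apart compared with the spread inside each. With means of 603 ± 34.6 and 807 ± 42.0 (SD, n = 3), the log2 fold change was 0.42 (SE 0.08, 95% confidence interval 0.24 to 0.60, adjusted p = 0.00371 by limma), so *igfbp5b* rose without reaching the limit of the call. When single pools were left out the adjusted p stayed between 0.00518 and 0.0223.

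The receptor genes fell. The Igf1 receptor is a membrane tyrosine kinase that binds Igf1 and Igf2 and starts the signal inside the cell. The *igf1ra* gene (ENSDARG00000027423) had 1977, 1766 and 1834 normalized counts across WT pools and 1245, 1182 and 1386 across mutant pools. The highest mutant pool was clearly below the lowest WT pool. The means were 1859 ± 108 in WT and 1271 ± 104 in the mutant (SD, n = 3), and the log2 fold change was -0.55 (SE 0.08, 95% confidence interval -0.73 to -0.37, adjusted p = 0.000748 by limma). Only 3.44% of the tested genes had a lower log2 fold change. Without mutant pool 2 the log2 fold change was -0.499, so that the gene was no longer called, but its adjusted p was 0.00285.

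The second copy, *igf1rb* (ENSDARG00000034434), had 1065, 1010.3 and 981 normalized counts across WT pools and 754, 789.6 and 806 across mutant pools. Again all mutant pools were below all WT pools. The means of 1019 ± 43.1 and 783 ± 26.4 (SD, n = 3) gave a log2 fold change of -0.38 (SE 0.07, 95% confidence interval -0.54 to -0.21, adjusted p = 0.00382 by limma), which passed the test but not the limit on the fold change. When single pools were left out the adjusted p stayed between 0.0041 and 0.024.

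The ligand genes did not pass the test. The *igf1* gene (ENSDARG00000094132), whose product mediates much of the effect of growth hormone, had 33 to 78 reads per library, which limits its precision. Its normalized counts were 52.7, 73.5 and 37.3 across WT pools and 33.8, 49.0 and 32.1 across mutant pools. Mutant pool 2 was above WT pool 3, so the groups overlap. The means were 54.5 ± 18.2 and 38.3 ± 9.29 (SD, n = 3), and the log2 fold change of -0.47 had a 95% confidence interval from -1.11 to 0.17 (adjusted p = 0.235 by limma). At this depth and spread a decrease by more than 0.5 on the log2 scale could not be told from no change.

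Of the genes for Igf2, the factor best known from fetal growth in mammals, *igf2a* (ENSDARG00000018643) had 213, 199 and 180.3 normalized counts in WT and 215, 214 and 181 in the mutant. The pools were interleaved. The log2 fold change was 0.04, with a 95% confidence interval of -0.24 to 0.32 that leaves out changes beyond 0.5 in either direction (adjusted p = 0.827 by limma). The other copy, *igf2b* (ENSDARG00000033307), had 997, 936 and 1049 normalized counts in WT and 850.5, 812 and 901 in the mutant. Here the 3 mutant pools were the lowest, by a small margin. The means of 994 ± 56.6 and 854 ± 44.9 (SD, n = 3) gave a log2 fold change of -0.22 (SE 0.08, 95% confidence interval -0.39 to -0.04) with a limma adjusted p of 0.0552, just over the threshold. Without mutant pool 3 the adjusted p was 0.0347, and over all the alternatives tried it ranged from 0.0347 to 0.182.

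The growth hormone receptor genes code for the cytokine-type receptors at the head of the axis. The *ghra* gene (ENSDARG00000054771) had 90.9, 59.4 and 74.7 normalized counts across WT pools and 68.7, 78.1 and 60.7 across mutant pools, and *ghrb* (ENSDARG00000007671) had 287, 260.1 and 266 in WT and 332, 243 and 261 in the mutant. Neither gene parted the groups. The log2 fold changes were -0.10 for *ghra* (95% confidence interval -0.56 to 0.36, adjusted p = 0.741 by limma) and 0.03 for *ghrb* (95% confidence interval -0.26 to 0.31, adjusted p = 0.889). For *ghra* the interval reaches past 0.5, so a decrease of that size could not be told from no change, and for *ghrb* it does not.

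**Figure D2:**
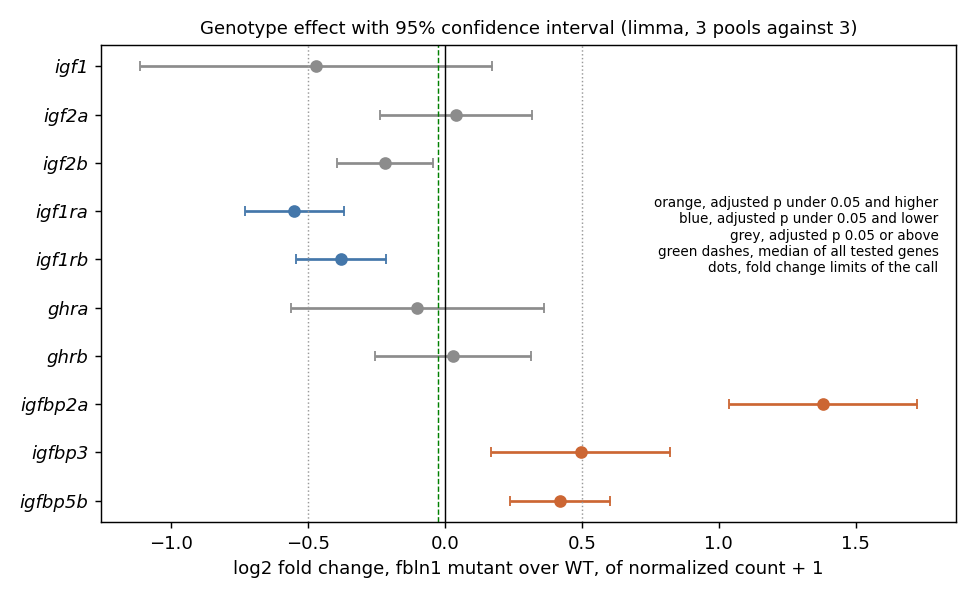
Log2 fold change of fbln1 mutant over WT (horizontal axis) of the 10 axis genes with 95% confidence intervals from limma, with 3 pools in each group. The intervals of the 3 binding protein genes lie above 0 and those of *igf1ra*, *igf1rb* and *igf2b* below it, and *igfbp2a* at 1.38 and *igf1ra* at -0.55 are the genes of the 10 beyond 0.5 in either direction.

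Ratios of 2 genes inside the same library do not depend on how libraries are scaled, and 8 of them were computed after the values were seen. With 3 pools against 3, an exact permutation test (two-sided) cannot go below p = 0.1, so none can pass the threshold, and the smallest value adjusted over the 8 ratios was 0.2. The ratio of *igf1ra* to *igf1rb* was 1.82 ± 0.0668 in WT and 1.62 ± 0.114 in the mutant (SD, n = 3 pools each), lower in every mutant pool (p = 0.1, adjusted p = 0.2, exact permutation test). The ratio of *igf2b* to *igf2a* was 5.07 ± 0.646 in WT and 4.24 ± 0.640 in the mutant (SD, n = 3 pools each) and its groups overlapped (p = 0.3, adjusted p = 0.4, exact permutation test). The ratios of *ghrb* to *ghra*, of *igfbp5b* to *igfbp5a* and of *igfbp2a* to *igfbp2b* overlapped between the groups as well (p = 0.8, 0.2 and 0.7, exact permutation test), and that of *insrb* to *insra* was lower in every mutant pool (p = 0.1, adjusted p = 0.2).

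Other binding protein genes moved in both directions. Of 7 genes outside the 10, 6 were tested, and *igfbp2b* and *igfbp5a* rose while *igfbp1a* and *igfbp1b* fell (18.9% and 15.1% of all tested genes). The *igfbp2b* gene (ENSDARG00000031422) had few reads, with 13.4, 7.54 and 14.9 normalized counts across WT pools and 26.6, 28.1 and 45.1 across mutant pools. All mutant pools were above all WT pools, and its log2 fold change of 1.41 (SE 0.37, adjusted p = 0.0153 by limma) was close to that of its copy *igfbp2a*. Without mutant pool 3 the adjusted p was 0.0556.

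The *igfbp5a* gene (ENSDARG00000039264), which in zebrafish is known from the ionocytes that take up calcium, had 32.0, 31.1 and 39.5 normalized counts in WT and 54.3, 49.0 and 57.2 in the mutant. The groups did not overlap, but the log2 fold change of 0.64 only just passed (SE 0.23, adjusted p = 0.0499 by limma) and did not pass with any 1 of the 6 pools left out (adjusted p 0.0583 to 0.123). In contrast, *igfbp1a* and *igfbp1b* code for the Igfbp1 proteins, which in zebrafish slow growth and are induced by fasting and low oxygen. For *igfbp1b* (ENSDARG00000038666) normalized counts were 7659, 8368 and 10545 across WT pools and 6478, 5676.5 and 5672 across mutant pools.

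Both Igfbp1 genes were lower in every mutant pool. The log2 fold change of *igfbp1b* was -0.57 (SE 0.11, adjusted p = 0.00427 by limma), and without WT pool 3 it was -0.43 and no longer past the limit of the call (adjusted p = 0.0145). For *igfbp1a* (ENSDARG00000099351), with 4129.7, 4954 and 6127 normalized counts in WT and 3907, 3709.7 and 3401 in the mutant, it was -0.45 (SE 0.12, adjusted p = 0.0185 by limma). Without WT pool 3 the adjusted p of *igfbp1a* was 0.0645. The summed level of liver markers was higher in the mutant, as given above, and whether the amount of liver bears on the Igfbp1 genes was not tested. Of the other tested genes, *igfbp6b* and *igfals*, whose product holds Igf1 and Igfbp3 in a large blood complex in mammals, had log2 fold changes of 0.28 and 0.44 and did not pass (adjusted p = 0.451 and 0.496 by limma).

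The ratio of *igfbp2a* to *igfbp1b* puts these opposite changes on a scale that does not depend on the size factors. It was 0.0181, 0.0130 and 0.00981 across WT pools and 0.0486, 0.0606 and 0.0454 across mutant pools. Each mutant pool was thus above each WT pool, with a 3.87-fold difference of the geometric means (p = 0.1, adjusted p = 0.2, exact permutation test). This order was fixed in advance, since *igfbp2a* was higher and *igfbp1b* lower in every mutant pool. The p-value is therefore no further support. The ratio of *igfbp3* to *igfbp1a* was 1.93-fold higher, with no overlap between the groups (p = 0.1, adjusted p = 0.2, exact permutation test). Its order was fixed in the same way, since *igfbp3* was higher and *igfbp1a* lower in every mutant pool.

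Several binding protein genes are neighbours in the genome. In the RefSeq annotation of the GRCz12tu assembly, the protein coding neighbour of *igfbp2a* is *igfbp5a*, that of *igfbp2b* is *igfbp5b*, and that of *igfbp3* is *igfbp1a*. Genes were matched to this annotation by symbol only, and it lists the names with a and b exchanged as older synonyms. All genes of the first and second of these neighbour pairs rose, by 1.38 and 0.64 and by 1.41 and 0.42 on the log2 scale (limma). In the third, *igfbp3* rose by 0.50 and *igfbp1a* fell by 0.45. The assembly is not the one on which the reads were counted, so it is used for the order of genes alone.

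**Figure D3:**
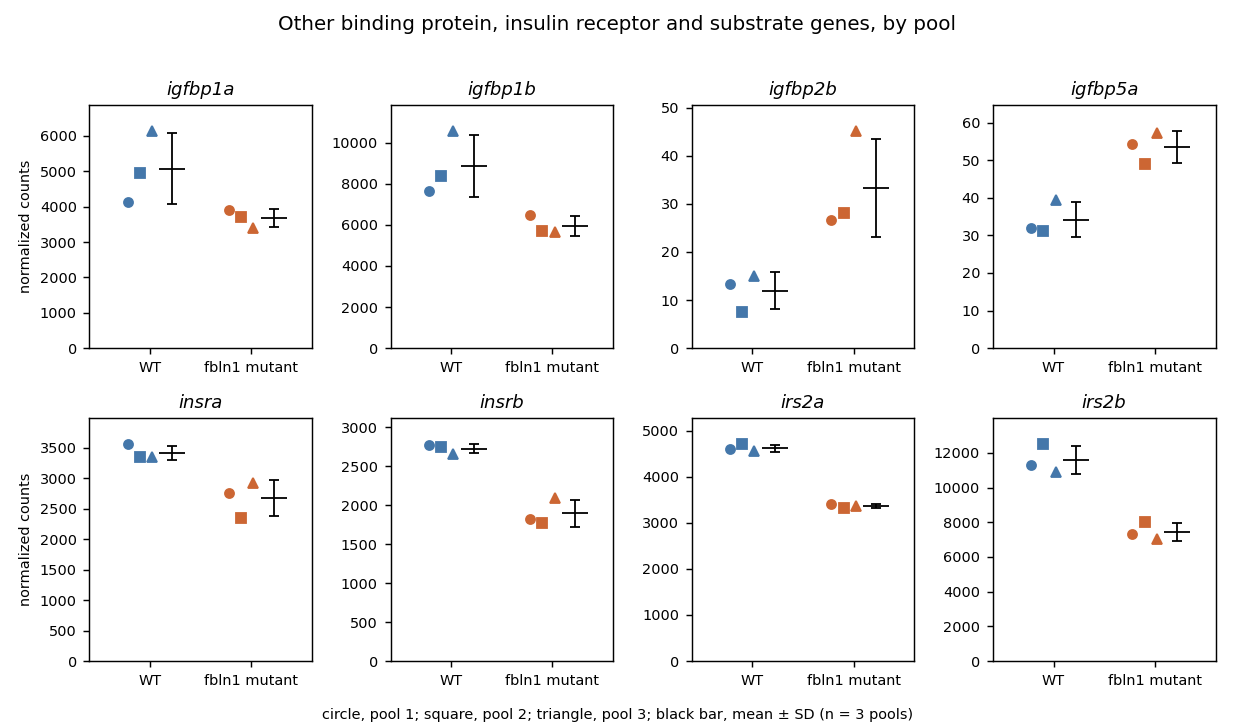
Normalized counts (vertical axes, each starting at 0) of *igfbp1a*, *igfbp1b*, *igfbp2b*, *igfbp5a* and of the insulin receptor and receptor substrate genes *insra*, *insrb*, *irs2a* and *irs2b* in WT and fbln1 mutant pools. Symbols are as in the plot of the 10 axis genes, with the mean ± SD of 3 pools, and only *igfbp2b* and *igfbp5a* are higher in the mutant.

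Receptor genes for insulin and Igf2 were lower too. Of the 4 tested genes among other ligands and receptors of the insulin family, *insra*, *insrb* and *igf2r* fell and *ins* rose (15.1% and 18.9% of all tested genes). The insulin receptor gene *insrb* (ENSDARG00000071524) had 2772, 2743 and 2664 normalized counts across WT pools and 1827, 1767 and 2096 across mutant pools. Its log2 fold change of -0.53 was close to that of *igf1ra* (SE 0.08, adjusted p = 0.000768 by limma), and it was -0.48 without mutant pool 2, short of the limit of the call.

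The other insulin receptor gene, *insra* (ENSDARG00000011948), had 3552, 3340 and 3341 normalized counts in WT and 2747, 2351 and 2916 in the mutant, a log2 fold change of -0.36 (adjusted p = 0.0104 by limma). For *igf2r*, whose product in mammals takes up Igf2 for degradation, the log2 fold change was -0.40 (adjusted p = 0.00631). All mutant pools were below all WT pools for both insulin receptor genes, *igf2r* and both Igf1 receptor genes. The same held for 24.3% of all tested genes. In these bulk samples, fewer cells that carry a receptor, less of its RNA per cell and a larger share of RNA from other tissues cannot be told apart.

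The *ins* gene (ENSDARG00000035350), which codes for insulin in the beta cells of the pancreas, had 166, 129 and 146 normalized counts across WT pools and 283, 198 and 216 across mutant pools. The groups did not overlap. Its log2 fold change was 0.64 (SE 0.16, adjusted p = 0.0115 by limma), and without mutant pool 1, the highest, it was 0.49 (adjusted p = 0.0487), short of the limit of the call. The exocrine pancreas markers, all of which rose, had a summed level 1.85 times that of WT, beside 1.58 times for *ins*, and whether the pools differed in their amount of pancreas was not tested.

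Inside the cell, the genes for receptor substrates fell. Irs proteins link insulin and Igf1 receptors to PI3 kinase. The *irs2b* gene (ENSDARG00000075282) had 11303, 12493 and 10928 normalized counts in WT and 7326, 8028 and 7009 in the mutant, so the groups were far apart. Its log2 fold change was -0.63 (SE 0.08, adjusted p = 0.000372 by limma), and it was -0.46 for *irs2a* (ENSDARG00000037099, adjusted p = 0.000513), which had 4607, 4705 and 4559 normalized counts in WT and 3412, 3329 and 3360.2 in the mutant. The *irs1* gene fell by 0.39 (adjusted p = 0.00988).

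Of the 31 tested genes for receptor substrates and for the PI3K, Akt and mTOR kinases and their partners, 17 fell and 2 rose, beside 15.1% and 18.9% of all tested genes. With the limit on the fold change, *irs2b* and *grb10b* were called lower and *akt2l* higher. Grb10 proteins are adaptors that in mammals inhibit the insulin and Igf1 receptors, and *grb10b* had a log2 fold change of -0.61 (adjusted p = 0.0232 by limma), with adjusted p-values of 0.0954, 0.0757 and 0.0771 without WT pool 1, WT pool 3 and mutant pool 1. The *akt2l* gene, named for its likeness to the kinase Akt2, changed by 0.69 (adjusted p = 0.00264), and *pik3r2*, a regulatory subunit of PI3 kinase, by 0.45 (adjusted p = 0.00587). The median log2 fold change over these 31 genes was -0.22, and it was -0.03 over all tested genes.

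Foxo factors are transcription factors that insulin and Igf1 signals keep out of the nucleus, and the 4E-BP and sestrin proteins restrain translation and mTOR. Of 14 tested genes of this kind 6 fell and 2 rose, where 15.1% and 18.9% of all tested genes did. Here *foxo4* and *foxo3b* had log2 fold changes of -0.46 (adjusted p = 0.0017 by limma) and -0.39 (adjusted p = 0.0026). The sestrin gene *sesn3* was the only called gene of this list, with 439, 406 and 448 normalized counts across WT pools and 638, 660.5 and 626 across mutant pools. It rose by 0.57 on the log2 scale (SE 0.08, adjusted p = 0.000616), and *eif4ebp2* by 0.28 (adjusted p = 0.0151), which was 0.0538, 0.0555 and 0.0721 without WT pool 1, WT pool 3 and mutant pool 1.

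On the growth hormone side, 4 of 14 tested genes fell and none rose or was called. Over all tested genes 15.1% fell and 18.9% rose, and 2.68% were called lower and 15.4% higher. The pituitary gene *gh1*, which codes for growth hormone, had 1485, 1646 and 1410.5 normalized counts across WT pools and 1131, 1286 and 1294 across mutant pools, all below WT. Its log2 fold change was -0.29 (SE 0.09, adjusted p = 0.0244 by limma), and the adjusted p was 0.0643, 0.0862 and 0.106 without WT pool 1, WT pool 2 and mutant pool 1. The other 3 genes were *ghrhra*, a receptor for the releasing hormone of growth hormone, with -0.50 (adjusted p = 0.0421), *socs3a*, a feedback inhibitor of cytokine receptors, with -0.49 (adjusted p = 0.00727), and *stat5a*, with -0.41 (adjusted p = 0.0366). Without WT pool 1 the adjusted p was 0.161 for *ghrhra* and 0.119 for *stat5a*, and these genes passed only without WT pool 2 (0.0128 and 0.0463) and, for *stat5a*, without mutant pool 3 (0.00327). By contrast *socs3a* passed with any single pool left out.

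Of 7 tested genes for proteinases that cut binding proteins and for their stanniocalcin inhibitors, 1 rose and none fell, and the share that rose over all tested genes was 18.9%. This was *htra1a*, whose mammalian counterpart is a secreted serine proteinase, with a log2 fold change of 0.50 (adjusted p = 0.0449 by limma) that passed without mutant pool 3 (adjusted p = 0.0202) but with no other single pool left out (0.0647 to 0.173). Of 4 genes for Igf2 mRNA-binding proteins, RNA regulators named for a target in mammals, *igf2bp1* fell by 0.25 (adjusted p = 0.02, and 0.0859, 0.0548 and 0.073 without WT pool 1, WT pool 3 and mutant pool 1) and *igf2bp2a* had a log2 fold change of -0.23 (adjusted p = 0.159).

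Over the 7 lists of pathway genes, 80 of 88 listed genes found in the table were tested. Of the 80, 33 fell and 8 rose, beside 15.1% and 18.9% of all tested genes. These shares were not matched for expression level, here or for the single lists. The count of genes that fell depended on single libraries, and it was 18 without WT pool 1, 18 without WT pool 3 and 21 without mutant pool 1. With other scalings and tools it was between 24 and 36. Over all tested genes 3116 fell in the main fit, and the number that fell with 1 library left out was not counted. The number called lower, which also needs the limit on the fold change, was 555 over all tested genes. It was 253, 690 and 431 without WT pools 1, 2 and 3. Without mutant pools 1, 2 and 3 it was 453, 258 and 1100. With other scalings and tools it was between 320 and 797. With the limit on the fold change 4 of the 80 were called lower and 6 higher, beside 2.68% and 15.4% of all tested genes. Of these pathway genes 8 were called lower without WT pool 2 and 3 higher without mutant pool 1. Over all tested genes 690 of 20516 were called lower without WT pool 2. Without mutant pool 1, 2435 of 20242 were called higher. The median log2 fold change over the 80 genes was -0.25.

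**Figure D4:**
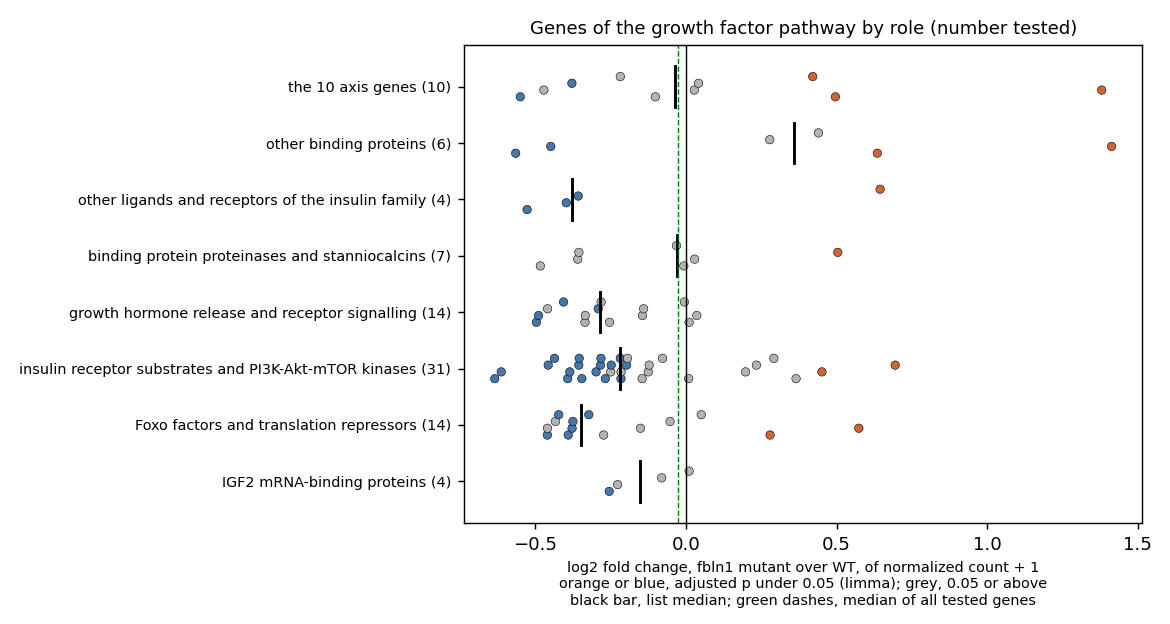
Log2 fold change of fbln1 mutant over WT (horizontal axis) of each tested gene of the axis and of 7 lists of pathway genes, ordered by role. Coloured points have a limma adjusted p under 0.05, and black bars mark list medians. The medians were -0.38 for other ligands and receptors of the insulin family, -0.22 for receptor substrates and kinases and -0.35 for Foxo factors. For the growth hormone list the median was -0.29, and for Igf2 mRNA-binding proteins it was -0.15. It was -0.03 for proteinases and stanniocalcins and 0.36 for other binding proteins, beside -0.03 for all tested genes.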

How the data were processed

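Heads of 10 dpf larvae were sequenced in 3 *fbln1* mutant and 3 WT pools. The authors ran the nf-core rnaseq pipeline (GRCz11, Ensembl annotation) on stranded single-end reads and deposited gene counts divided by 1 size factor per library, a normalized signal. Dividing by the step between low values gave whole reads for 100% of values within 0.1 of a whole number in each library, and the steps equalled the inverse of the median-of-ratios size factors. A second deposited table holds the authors' DESeq2 comparison (log2 fold changes, standard errors, test statistics, p-values and means) and was not used here.

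A gene that reached 10 normalized counts in 3 or more libraries was tested with limma 3.58.1 (R 4.3.3) on log2(normalized count + 1), a scale that understates changes of low genes, with genotype as the only term and a variance trend. A call needed an adjusted p under 0.05 and a log2 fold change beyond 0.5. The study states the same 2 limits and does not call the p-value of its limit adjusted, although its list of changed genes is described as holding adjusted p-values. The test was tried on simulated data with the same extra spread between libraries for every gene. There 48 of 100 genes with a true change of 0.75 on the log2 scale passed, in either direction. Of 100 genes with a change of 1.5, 94 passed, and of 20491 unchanged genes 7 did. Genes with another spread can differ from this. Alternatives were other scalings, filters, pseudocounts, no variance trend, the replicate block, each library left out, and edgeR 4.0.16 and DESeq2 1.42.0 on the recovered reads. Over all genes edgeR called 3335 higher and 320 lower, and limma 3191 and 555. Pools of a group differed by more than sampling noise (chi-square per degree of freedom 6.07 to 16.0). As a floor, 3 reads equal 2.60 to 3.20 normalized counts, which covers counting error only.

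The genes and lists were chosen with earlier results of these data known. Named were the 10 genes, the called genes of the pathway lists, *igfbp2b* and *igfbp5a*, and the 2 largest changes of lists with no call. The genes *igfbp1a*, *igfbp6b*, *igfals*, *insra*, *igf2r*, *irs1*, *irs2a*, *gh1*, *stat5a*, *foxo3b*, *foxo4*, *pik3r2* and *eif4ebp2* were named after their values were seen.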

Additional observations from a re-analysis of the deposited data

How the results depend on the processing

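The calls depended most on the limit on the fold change. Without it, 3 genes of the axis were higher and 2 lower, and 33 pathway genes were lower. With TMM scaling, edgeR or DESeq2, 2 genes of the axis were called higher, since *igfbp3* then lay past 0.5 (0.53, 0.55 and 0.52). Over all tested genes 3340, 3335 and 3116 were called higher in these fits, beside 3191 in the main fit. With each library left out in turn, 1 to 2 genes of the axis were called higher and 0 to 1 lower, and 3 to 5 pathway genes were called higher and 3 to 8 lower. Of all tested genes, 2318 to 3173 were called higher and 253 to 1100 lower with each library left out. The number of pathway genes that fell was 24 with TMM scaling, 24 with edgeR, 27 with DESeq2 and 36 with scaling by total reads. The edgeR fit also uses TMM scaling. Over all tested genes the number that fell was not counted in these fits. In the same order, 353, 320, 439 and 797 of them were called lower, beside 555 in the main fit. Without the variance trend 12 pathway genes fell in place of 33, and *igfbp3* had an adjusted p of 0.0605 by limma. Over all tested genes, the number that fell without the trend was not counted. With the limit on the fold change, 387 of them were called lower without the trend, beside 555 with it. Among the named genes, signs changed in 4 that did not pass. They were *igf2a* (-0.021 to 0.12 with 1 library left out), *ghra* (-0.26 to 0.046), *igfals* (-0.047 to 0.84, negative without WT pool 1) and *ghrb* (-0.11 to 0.12, and -0.0054 with scaling by total reads). Of the values of the named genes under the alternatives, 535 kept their direction and their side of the call, 31 were no longer called and 14 became called. Other calls moved with the scaling too. With TMM and edgeR *insrb* was short of the limit (-0.49 in both). With total reads *igfbp5a* (limma adjusted p = 0.0623) and *htra1a* (log2 fold change 0.47) were no longer called, and *ghrhra* (-0.53) and *socs3a* (-0.52) became so. With DESeq2 *igfbp5a* and *htra1a* missed the threshold (adjusted p = 0.11 and 0.0583) and *ghrhra* was called (-0.50). The scaling moved the median of all tested genes by less than 0.1, to between -0.06 and 0.01. The filter at 50 normalized counts left out *igf1*, *igfbp2b*, *igfbp5a*, *igfbp6b* and *igfals*.

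Pools share replicate numbers across the groups, and the design text sets each mutant batch against its own siblings, but neither it nor the labels say that a number marks such a batch. The deviations of same-numbered pools correlated with r = 0.04, 0.15 and 0.04, and those of differently numbered pools with -0.09 to 0.05. WT pools 2 and 3 correlated best with the mutant pool of their own number. WT pool 1 stood at 0.043 with mutant pool 1 and at 0.048 with mutant pool 3. Whether the numbers mark pairs cannot be told, so the main test did not use them. With the replicate block 1 gene of the axis was called higher and 1 lower, and 5 pathway genes higher and 4 lower, and over all genes 3241 were called higher and 581 lower. With the block the limma adjusted p was 0.0448 for *igf2b* and 0.064 for *igfbp5a*. Among the 10 genes depth limits *igf1* most, with 33 to 78 reads per library. Few reads also covered *igfals* (6 to 25), *igfbp2b* (8 to 52), *igfbp6b* (20 to 38) and *igfbp5a* (31 to 66).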
